A study of Drosophila melanogaster with 2 samples.

Results

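The genes examined were 9 genes of fatty acid synthesis and activation in the fruit fly Drosophila melanogaster: ATPCL, ACC, FASN1, FASN2, Desat1, SREBP, Acsl, bgm and Acsx2. They were found by matching the transcript accessions of the deposited tables to gene symbols in the RefSeq annotation, and uniquely assigned reads were summed over all accessions of each gene. All 9 were found, among 11256 genes in all, and they were counted on 25 of their 36 annotated transcripts. Poly(A) RNA had been sequenced from heads of Canton-S females aged from 3 to 5 days, a wild-type strain with no transgene. Ethanol flies were given ethanol vapor for 15 min, by which time they were sedated, and were then given plain air for 30 min, whereas control flies were given plain air throughout the 45 min. About 180 flies were pooled into the single library of each group. There is thus no replicate to set a difference against, and the treatment gets no p-value.

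Fatty acids are made in the cytosol from acetyl-CoA. ATP-citrate lyase supplies the acetyl-CoA, acetyl-CoA carboxylase turns it into malonyl-CoA, and fatty acid synthase builds the chain, which desaturases and elongases then modify. A free fatty acid must be joined to coenzyme A by an acyl-CoA synthetase before it can be stored, elongated, placed in membranes or burned. In the fly the fat body, which also lies in the head, is the main site of synthesis, and oenocytes use the same enzymes to make cuticular hydrocarbons.

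Depth was 11.8 M assigned reads in the control library and 11.0 M in the ethanol library, and RNA integrity numbers, on a scale from 1 to 10, were 6.80 and 6.40. The tables gave abundant reads for most of the head's photoreceptor genes, led by the opsin gene ninaE (546212 control and 452455 ethanol reads). Of the 6 photoreceptor genes listed, norpA had the fewest, with 36 and 34 reads. The log2 ratio below is ethanol over control reads, each scaled by the total of its library, with a 95% Clopper-Pearson interval that covers counting error only. Genes with 50 or more reads summed over the libraries count as measured: there were 7822, including all 9. A gene was called higher or lower when it differed at least 2-fold and the interval excluded no difference, and a second rule used 1.5-fold.

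Acsx2 was the 1 member called by the 2-fold rule, and it fell. ACC was the 1 further member called by the 1.5-fold rule, also lower. The other members lay within 1.5-fold: ATPCL and bgm were slightly higher after ethanol, FASN1 and Desat1 slightly lower, and FASN2, SREBP and Acsl had intervals that included no difference. Of all measured genes, 0.741% were called lower and 1.75% higher by the 2-fold rule, and 2.86% and 5.97% by the 1.5-fold rule. Intervals lay above no difference for 2 of the 9 members and below it for 4, against 23.9% and 15% of all measured genes. The median log2 ratio of the 9 members was -0.00050, and that of all measured genes was 0.049. By the reads counted, the 9 genes together made up 0.120% of the control library and 0.123% of the ethanol library. In whole heads, fewer cells of a type and less RNA per cell cannot be told apart.

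**Figure D1:**
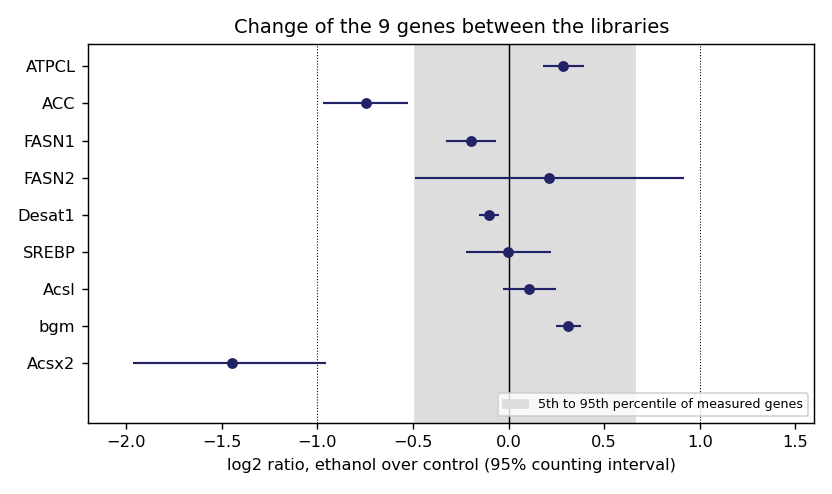
Log2 ratio of ethanol over control reads for each of the 9 genes (points) with 95% counting intervals (bars), 1 library per group; the grey band spans the 5th to 95th percentile of the 7822 measured genes (-0.49 to 0.66) and dotted lines mark 2-fold. ACC at -0.75 and Acsx2 at -1.45 lie outside the band, and the other 7 points lie inside it.

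The first enzyme, ATP-citrate lyase, had more reads after ethanol. ATPCL had 1302 reads in the control library and 1488 in the ethanol library (log2 ratio 0.29, interval 0.18 to 0.39). Both of its counted transcripts were higher after ethanol, NM_001144202 with 666 and 734 reads (0.23, 0.08 to 0.39) and NM_166131 with 636 and 754 (0.34, 0.18 to 0.49). Their shares of ATPCL reads overlapped within counting error, with 51.2% of control reads on the first (48.4 to 53.9) and 49.3% of ethanol reads (46.8 to 51.9). In the annotation ATPCL overlaps CG8320 (log2 ratio 0.49) and Tmem131 (-0.11) on the opposite strand. No source used here says whether strand was used in counting, so reads of overlapping genes cannot be told apart.

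Acetyl-CoA carboxylase, which makes malonyl-CoA in the rate-limiting step of the pathway, had fewer reads after ethanol. ACC had 478 control reads and 267 ethanol reads (log2 ratio -0.75, interval -0.97 to -0.53), and 1.70% of measured genes had a lower ratio. Most of these reads fell on NM_165581, with 421 and 239 (-0.72, -0.96 to -0.49). Its control reads lay on 4.97% of that transcript, so the ratio describes a short stretch of it. The 2 minor accessions, NM_001103756 with 28 and 10 reads and NM_001103757 with 29 and 18, had log2 ratios of -1.39 (-2.60 to -0.31) and -0.59 (-1.53 to 0.30), and the second interval included no difference. NM_165581 held 88.1% of control and 89.5% of ethanol ACC reads, shares whose intervals overlapped. Nup44A, which overlaps ACC on the opposite strand, had 137 and 186 reads (0.53, 0.21 to 0.86), the other direction.

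The size of the ACC difference has to be read beside its length, 7820 nt for the most-read transcript, because ratios fell with transcript length across the whole data set. The median log2 ratio was 0.13 for 1397 measured genes shorter than 1000 nt, 0.020 for 2628 genes of 2000 to 4000 nt, and -0.36 for 199 genes of at least 7000 nt. Of these 199 long genes, 19 had a lower ratio than ACC and 179 a higher one, and 17.1% were called lower by the 1.5-fold rule, against 2.49% of shorter genes. With the trend of ratio on length removed, ACC was at -0.46 (interval -0.68 to -0.24) and was no longer called by the 1.5-fold rule. The RNA integrity number was lower in the ethanol sample. With 1 library per group, integrity and treatment cannot be told apart, and the part of either in the length trend was not tested.

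**Figure D2:**
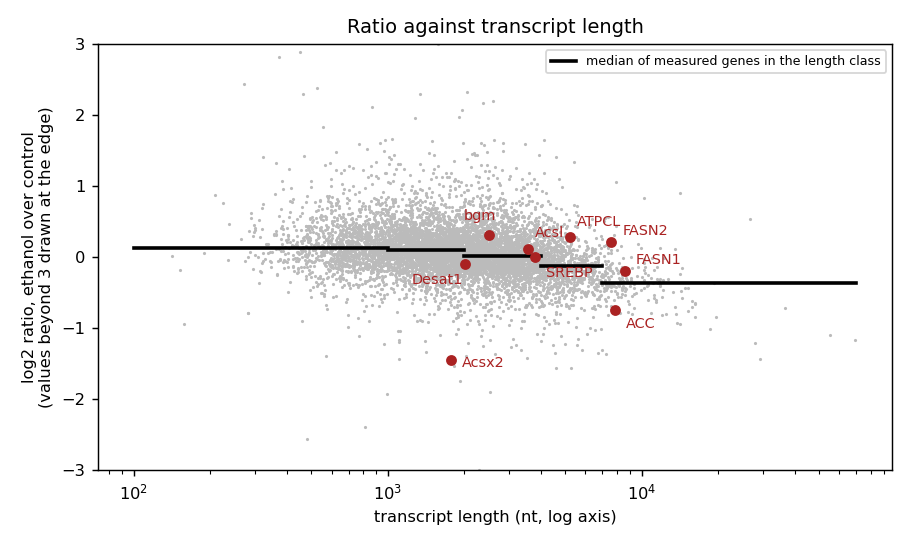
Log2 ratio of ethanol over control reads (vertical) against transcript length (horizontal, log axis) for all measured genes (grey points), with the median of 5 length classes (black lines) and the 9 genes (red). Class medians go from 0.13 below 1000 nt to -0.36 at 7000 nt and above; ACC lies below the median of its class, and FASN1 and FASN2 lie above it.

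Fatty acid synthase assembles palmitate from malonyl-CoA, and the fly has several genes for it. FASN1, the synthase of the fat body, had 1100 control and 900 ethanol reads (log2 ratio -0.20, interval -0.33 to -0.07). Its most-read transcript is 8612 nt long, and 139 of the 199 long genes had a lower ratio. The direction was not kept with the length trend removed (0.13, 0.00063 to 0.26). All control reads and 892 of the ethanol reads were on NM_134904. The other accession, NM_001144306, had 0 and 8 reads, and a count of 0 allows up to 3 reads.

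FASN2, the gene next to FASN1 on chromosome arm 2L, which has a role in cuticular hydrocarbons, was the least expressed of the 9. It had 35 and 38 reads (log2 ratio 0.21, interval -0.49 to 0.92), an interval that included no difference and nearly reached 2-fold higher. FASN1 had 31.4 reads for each FASN2 read in the control library and 23.7 in the ethanol library, a change whose interval included 1 (0.754-fold, 0.458 to 1.24).

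Desat1 encodes the main fly acyl-CoA desaturase, which puts a double bond into newly made saturated chains and is needed for pheromone synthesis. Desat1 had 6277 control and 5476 ethanol reads, the most of the 9 genes (log2 ratio -0.10, interval -0.16 to -0.05). Although its interval excluded no difference, 29.0% of measured genes had a lower ratio. A single transcript, NM_169466, held 96.2% of its control reads and 96.0% of its ethanol reads. Of the other 4 accessions, NM_169467 had 158 and 156 reads and NM_144474 had 68 and 56, with intervals that included no difference. NM_169465 (14 and 6 reads) and NM_169468 (1 and 0) were too low for a comparison.

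SREBP encodes the membrane-bound transcription factor that, once released by proteolysis, switches on lipogenic genes, in flies under the control of membrane phospholipid. SREBP had 350 and 328 reads, and its log2 ratio of -0.00050 (interval -0.22 to 0.22) was the median of the 9. NM_079442 held 98.9% of its control and 98.8% of its ethanol reads. Its partners were near no difference as well: SCAP, the escort of SREBP, was at 0.06 (-0.05 to 0.17), and the proteases S1P and S2P were at 0.06 (-0.19 to 0.31) and -0.15 (-0.32 to 0.03), genes named after their values were seen. These reads measure messenger RNA only, and say nothing of how much SREBP protein had been processed.

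Among the activation genes, bgm and Acsl differed little between the libraries, and Acsx2 differed most. Acsl, a long-chain acyl-CoA synthetase gene with roles in the fly nervous system, had 849 and 858 reads (log2 ratio 0.11, interval -0.03 to 0.25). Its main transcript NM_170616 had 722 and 699 reads (0.05, -0.11 to 0.20). A second one, NM_143777, had 71 and 99 (0.57, 0.12 to 1.03), and its share of Acsl reads was 8.36% in the control (6.59 to 10.4) and 11.5% in the ethanol library (9.48 to 13.9). Those share intervals overlapped. The remaining 5 Acsl accessions had from 0 to 32 reads in a library.

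bgm (bubblegum) encodes a synthetase for very long chains, and loss of it in flies causes degeneration of the optic lobe. It had 3613 control and 4204 ethanol reads on 1 accession, NM_079959 (log2 ratio 0.31, interval 0.25 to 0.38), the highest ratio of the 9. A higher ratio was found in 19.2% of all measured genes. For each Acsl read there were 4.26 bgm reads in the control library and 4.90 in the ethanol library (1.15-fold, 1.04 to 1.28).

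Acsx2 is named in the annotation as a member of the acyl-CoA synthetase family. It had 134 control reads and 46 ethanol reads on its 1 annotated transcript, NM_142573 (log2 ratio -1.45, interval -1.97 to -0.96). It fell to 0.366-fold (0.256 to 0.515), and 0.115% of measured genes had a lower ratio. Among the 1836 measured genes with 100 to 300 reads, 1.09% were called lower by the 2-fold rule. Its transcript is 1773 nt long, in a length range whose median ratio was 0.093, and reads covered 93.0% of it in the control library and 93.4% in the ethanol library. The fall was kept under each alternative that kept the gene (log2 ratio from -1.53 to -1.15), but a floor of 200 reads removes it.

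Acsx2 lies on arm 3R in a row of related genes, Acsx1L, Acsx1R, Acsx2, Acsx3 and Acsx4, and its neighbours did not have the same ratio. Acsx3, the most expressed of them, had 2267 and 2247 reads (log2 ratio 0.08, interval -0.0044 to 0.17), whereas Acsx1L had 188 in both libraries (0.09, -0.21 to 0.39). Acsx4 had 14 and 10 reads, too few for a comparison, and Acsx1R was not analysed here. There were 16.9 Acsx3 reads for each Acsx2 read in the control library and 48.8 in the ethanol library (2.89-fold, 2.04 to 4.15). That ratio of reads does not depend on how the libraries are scaled.

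Taken as ratios of reads within a library, the steps of synthesis differed in how they compared. Each control library read of ACC went with 2.72 reads of ATPCL, and each ethanol library read with 5.57, a 2.05-fold change (interval 1.73 to 2.43). The most-read ATPCL transcript, at 5221 nt, is shorter than that of ACC, at 7820 nt. With the length trend removed, the log2 ratios of ATPCL and ACC were 0.43 and -0.46, against 0.29 and -0.75 without. ACC reads per FASN1 read were 0.435 in the control library and 0.297 in the ethanol library (0.683-fold, 0.571 to 0.815). The most-read FASN1 transcript is 8612 nt long. With the length trend removed, the log2 ratio of FASN1 was 0.13, against -0.20 without. FASN1 reads per Desat1 read were 0.175 and 0.164 (0.938-fold, 0.852 to 1.03), an interval that included 1. The 6 pairs compared were chosen after the values had been seen, and the intervals cover counting error only.

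**Figure D3:**
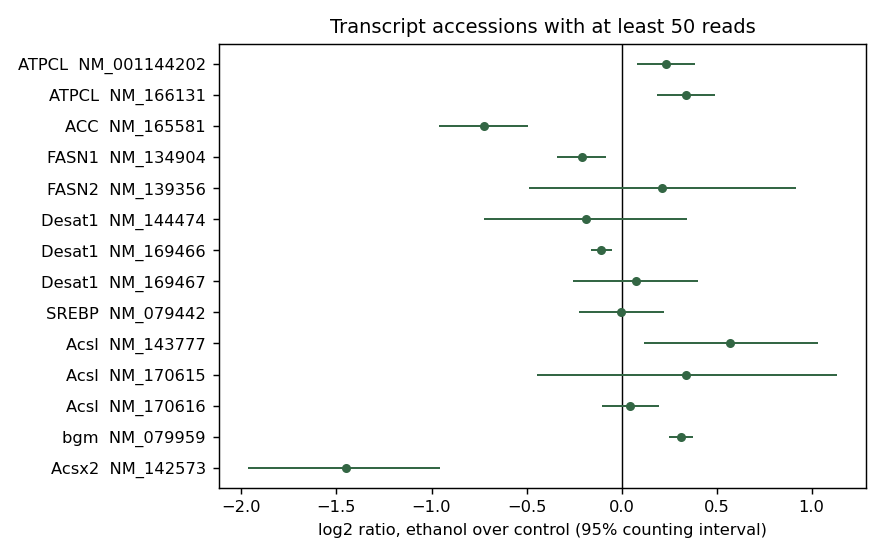
Log2 ratio of ethanol over control reads, with 95% counting intervals, for the 14 transcript accessions of the 9 genes with at least 50 reads. Both ATPCL accessions lie above 0, the ACC and Acsx2 accessions lie furthest below it, and NM_143777 of Acsl (0.57) lies above NM_170616 (0.05).

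By the authors' RPKM (reads divided by transcript length and by library size), summed over accessions, Desat1 was highest, at 264.7 in the control library and 246.4 in the ethanol library. bgm followed at 122.9 and 152.6, then ATPCL at 24.7 and 30.2, Acsl at 20.2 and 21.7, and FASN1 at 10.9 and 9.48. SREBP was at 7.80 in both libraries, Acsx2 at 6.42 and 2.35, ACC at 5.18 and 3.08, and FASN2 at 0.392 and 0.454. In the control library the Poisson intervals of Acsx2 overlapped those of its neighbours SREBP and ACC. In the ethanol library those of ACC and Acsx2 overlapped, with ACC above.

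These levels rest on very different stretches of transcript. The 421 control reads of ACC lay on 4.97% of NM_165581, about 389 nt, and the 1100 of FASN1 on about 517 nt of the 8612 nt of NM_134904. The most-read transcripts of SREBP, Acsl, ATPCL and Desat1 were covered over 10.7%, 12.6%, 27.6% and 30.0% in the control library, whereas that of bgm was covered over 98.0% with 3613 reads. Across the control library, accessions with at least 500 reads had a median coverage of 98.2% in genes with 1 accession (2111 accessions) and of 41.9% in genes with several (348 accessions). The tables do not say how reads shared by the accessions of 1 gene were counted, and such reads may be missing from the counts of ACC, FASN1, SREBP, Acsl, ATPCL and Desat1. That would lower their shares of reads and RPKM and alter the ratios of reads between genes. The share of reads held by each transcript would be altered too. The log2 ratio of such a gene between the libraries would then also depend on which of its transcripts were used. None of this was tested. FASN2, with 1 accession, was also covered over only 14.4% in the control library, with 35 reads. In the annotation the small nuclear RNA genes snRNA:LU and snRNA:U5:23D overlap FASN2 on the same strand. Whether any reads of theirs were counted for FASN2 was not tested. By covered length, and with the most-read transcript of each gene only, the control level of FASN1 was 181.0. That was above bgm at 125.4, and ACC was at 92.1. Acsx2 was at 6.91 and FASN2 at 2.72 on that scale, and Desat1 was first at 848.0. The order of these genes by level thus depends on the length and the transcripts used, and the ratios of ACC, FASN1 and SREBP describe short stretches of long transcripts.

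Coverage itself differed between the libraries for some members. NM_001144202 of ATPCL was covered over 27.6% in the control library and 40.6% in the ethanol library, and FASN2 over 14.4% and 26.2%, with similar reads. That of bgm was 98.0% and 89.3%, with more reads in the ethanol library.

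**Figure D4:**
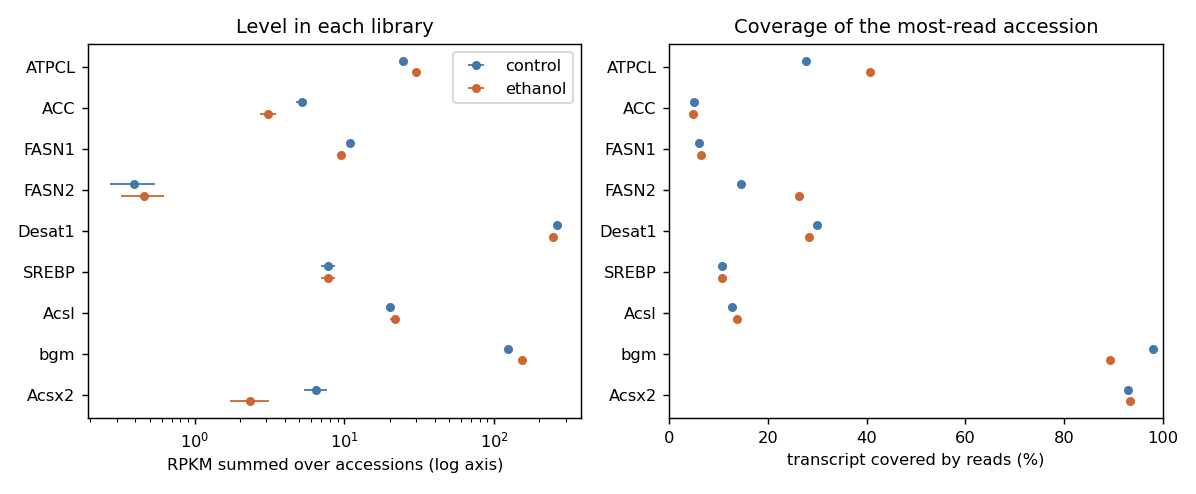
Left, RPKM summed over accessions (log axis) of each gene in the control and ethanol libraries, with 95% Poisson intervals; right, percent of the most-read accession covered by reads. Desat1 and bgm are highest and FASN2 lowest by RPKM, and coverage runs from about 5% for ACC to over 89% for bgm and Acsx2.

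Other genes of the pathway were described by role, as 68 list entries of which 65 matched a gene and 44 genes were measured. By the 2-fold rule 2 of the 44 were higher, 0 lower and 42 did not pass, and their median log2 ratio was 0.046. By the 1.5-fold rule 3 were higher and 0 lower. These shares stand beside the 1.75% and 5.97% of all measured genes called higher by those rules.

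The largest ratio was that of sug (sugarbabe), a zinc finger factor of the sugar response that promotes lipogenesis, which rose from 1545 to 7119 reads (4.92-fold, interval 4.65 to 5.20). It was the 1 of 9 regulators that passed. SNF4Agamma, a subunit of the energy sensor AMPK, whose kinase inhibits ACC, was at 1.42-fold (1.15 to 1.75). The kinase subunit AMPKalpha was at 1.02-fold (0.872 to 1.18), and alc, another AMPK subunit, at 1.06-fold (1.004 to 1.12). Any part of AMPK in the ACC ratio was not tested. Mondo, the sugar-sensing partner factor, was at 1.14-fold (0.665 to 1.96).

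None of the 7 measured genes supplying acetyl-CoA and NADPH passed either rule. Pgd, an NADPH-producing enzyme of the pentose phosphate pathway, was at 1.27-fold with 2972 and 3543 reads (1.21 to 1.34). AcCoAS, which makes acetyl-CoA from acetate, was at 1.19-fold with 3865 and 4314 reads (1.14 to 1.24). The citrate carrier gene sea was at 0.908-fold (0.764 to 1.08). Like ATPCL, both Pgd and AcCoAS had intervals above no difference, as had 23.9% of all measured genes.

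The 10 measured genes of synthase and elongation had 0 calls by either rule and a median of -0.11. Their largest ratios were those of the elongase gene bond (47 and 28 reads, log2 ratio -0.65, -1.38 to 0.05), Baldspot, also an elongase gene (1138 and 856, -0.32, -0.45 to -0.19), and CG31522 (90 and 70, -0.27, -0.74 to 0.20). Among 4 measured desaturases other than Desat1, again with 0 calls, CG8630 was at 0.24 (0.01 to 0.47), CG9743 at -0.21 (-0.33 to -0.08), and ifc, which acts in ceramide synthesis, at 0.04.

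Of 5 measured acyl-CoA synthetase and transport genes, pdgy (pudgy) rose, with 17 and 35 reads (log2 ratio 1.13, 0.26 to 2.06). That is 52 reads in all, just above the floor, and a pseudocount of 0.1 or 1 RPKM ended the call. CG3961 was at 1.19-fold and Acsx1L at 1.07-fold. Acyl-CoA binding proteins carry activated fatty acids, and 2 of their genes were measured: Acbp2 was at 1.71-fold (372 and 595 reads, log2 interval 0.58 to 0.96), higher by the 1.5-fold rule, and Acbp1 at 1.11-fold. Genes that build glycerolipids had 0 of 7 called, with Dgat2 at a log2 ratio of -0.31 (-0.94 to 0.31), Gpat4 at 0.17 and Gpdh1 at 0.10.

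**Figure D5:**
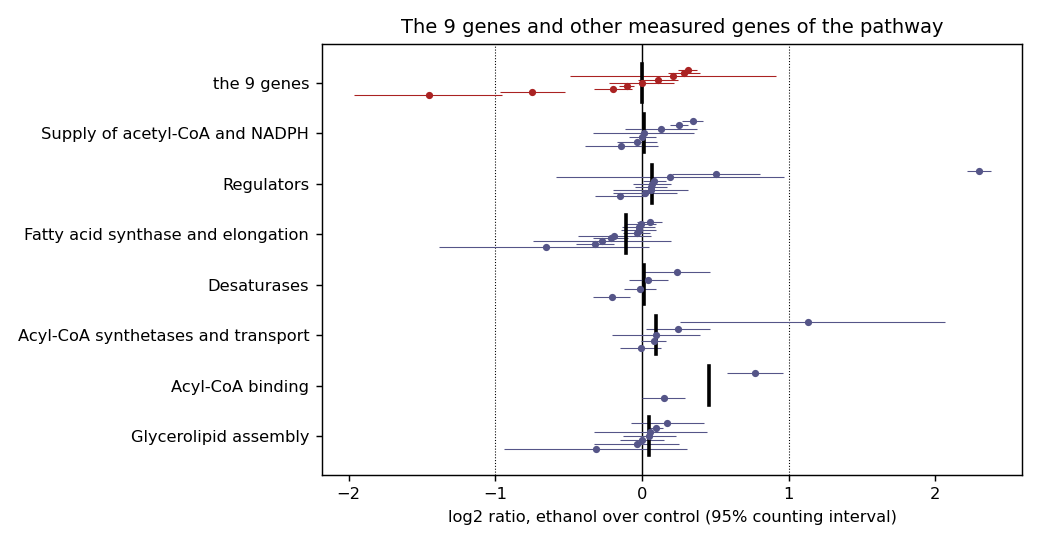
Log2 ratio of ethanol over control reads with 95% counting intervals for the 9 genes (red) and the 44 other measured genes of the pathway by role (blue); black ticks are medians and dotted lines mark 2-fold. sug at 2.30 and pdgy at 1.13 lie beyond 2-fold on the high side and Acsx2 at -1.45 on the low side.

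Markers of the cells that make fatty acids were measured in both libraries. The 10 fat body genes had a median log2 ratio of -0.0059 with 25.5% of all control reads and 24.7% of all ethanol reads on them. Most of those reads were on the yolk protein genes Yp1, Yp2 and Yp3. Ratios of the 10 genes ran from apolpp, the lipid carrier, at -0.22 to to (takeout) at 0.82. Of 7 oenocyte genes, 3 were measured and 4 had too few reads. Cyp4g1, which makes cuticular hydrocarbons, fell from 60 to 2 reads (log2 ratio -4.81, interval -7.89 to -2.90). The other 2 measured genes were Cpr, at 0.0058 (919 and 865 reads), and the elongation gene spidey, at 0.05 (2204 and 2144). FASN3 had 17 and 16 reads and FarO 28 and 14, and eloF and desatF had 2 and 7 control reads and 0 ethanol reads. The summed level of the oenocyte list was 140.0 RPKM in the control library and 140.7 in the ethanol library, most of it from spidey (107.4 and 111.5) and Cpr (28.0 and 28.2). The part of oenocyte number in any of these ratios was not tested. Other lists ran from Rdl (-0.73) to Syt1 (0.16) in neurons, Gs2 (-0.57) to Eaat1 (0.56) in glia, Act88F (-0.69) to wupA (0.27) in muscle, and ninaE (-0.18) to norpA (0.01) in photoreceptors.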

How the data were processed

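For each RefSeq accession the authors deposited the count of unique reads, the percent of its length with coverage, and RPKM, per the file headers. A deposited table of the whole series held the same counts and RPKM, with 0.001 in place of 0, and the authors' log2 ratio, p-value and FDR, treated as a score since it passes 1. The genome build named is BDGP 5, per the submitters' processing notes. No source used here names the aligner, the counting rule or the authors' test. Of 15090 accessions, 14521 had a gene in the Release 6 annotation, which served for names, transcript numbers and neighbouring genes only, since the builds differ. All 9 members matched.

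Reads were summed per gene and scaled by library totals. Ratios have exact 95% Clopper-Pearson intervals (scipy 1.17.1), ratios of 2 genes have exact conditional odds ratio intervals, and levels have exact Poisson intervals. None covers variation between fly pools or library preparations. The functions were tested on simulated data. Alternatives were median-of-ratios and TMM (edgeR 4.0.16) scaling, library totals that omit the 10 most abundant genes, floors of 200 reads and of 1 read, pseudocounts of 1 and 0.1 RPKM, lowess trends (fraction 0.3) on level or length removed, the most-read accession, summed RPKM, and a stricter interval.

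The members and lists were chosen with earlier results of these data known. Named were all 9 members, up to 3 measured genes per role with the largest ratios in either direction, the highest and lowest of each marker list, Cyp4g1 and ninaE. Neighbours, overlapping genes, the other AMPK subunits and the yolk protein genes were added after the values were seen. Levels per covered length, pairs of genes, and alternatives for transcripts and list medians were also chosen after seeing the data. Of the list entries, Acsx1A, Acsx1B and Acsx5 matched no gene, and CG15531, Acsx1R, Acbp3, Acbp5, Acbp6, anox and moody were not analysed here.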

Additional observations from a re-analysis of the deposited data

How the results depend on the processing

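Of 106 values of the 9 genes under the alternatives, 22 equal the reported ones by construction (other floors, or 1 accession only). Of the other 84, 82 kept whether the interval excluded no difference and, where it did, kept their direction. The exceptions were both FASN1: 0.13 with the length trend removed, which turned the direction, and -0.20 with a stricter interval that included 0 (-0.41 to 0.02). Direction was not compared where the reported interval included no difference. SREBP, for example, went from -0.00050 to 0.039 with the length trend removed. ACC ranged from -0.81 to -0.46, ATPCL from 0.22 to 0.43 and bgm from 0.25 to 0.31. The count of members past 2-fold went from 1 to 0 once the floor was 200 reads, since Acsx2 has fewer. The count past 1.5-fold went from 2 to 1 with that floor and to 1 with the length trend removed. Other pathway genes past 2-fold went from 2 to 1 with a floor of 200 reads, a pseudocount of 1 or 0.1 RPKM or the stricter interval. They went to 3 with the most-read accession and to 5 with no floor. Past 1.5-fold they went from 3 to 6 with no floor. That count was 4 with median-of-ratios scaling, with the trend on level or length removed, and with the most-read accession. It was 2 with a floor of 200 reads, a pseudocount of 1 RPKM or the stricter interval. No scaling moved the median of all genes by more than 0.1. Removing the trend on level gave 103 higher and 78 lower calls over all genes, against 137 and 58. No paired analysis was possible because each group had 1 library, and for the same reason no replicate could be left out. The 73 reads of FASN2 over both libraries leave it the widest interval of the 9.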

Other observations

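Several lipid genes lay under the floor of 50 reads and are given as values only, chosen after they were seen. Fatp1, a fatty acid transporter gene, had 10 control and 26 ethanol reads, and Agpat2, which acts in glycerolipid assembly, had 17 and 32. desatF (Fad2), a female pheromone desaturase gene, had 7 and 0 reads, where a count of 0 allows up to 3. FASN3, the third synthase gene, had 17 and 16. FarO, an oenocyte gene, had 28 and 14, and hll, another acyl-CoA synthetase gene, 18 and 27.

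The authors' deposited table gives NM_001144306 of FASN1 a log2 ratio of 6.38, from 0 and 8 reads, because 0 RPKM was replaced by 0.001. The same replacement is behind 5.56 for NM_168815 of SREBP (0 and 2 reads), and behind -5.65 for NM_001014507 of Acsl (2 and 0 reads) and -5.44 for NM_169468 of Desat1 (1 and 0 reads). In the authors' deposited table the FDR was 1.4e-08 for Acsx2 and 1.07e-08 for NM_165581 of ACC, values that compare the reads of 2 libraries and not the treatments.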
